A study of Rattus norvegicus with 6 samples.

Results

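The 8 genes described here encode adhesive and matricellular glycoproteins of the extracellular matrix: fibronectin (Fn1), tenascin C (Tnc), periostin (Postn), the TGF-beta-induced protein (Tgfbi), SPARC or osteonectin (Sparc), the SPARC-related modular calcium-binding proteins (Smoc1 and Smoc2) and vitronectin (Vtn). They were taken by gene name from the deposited table, each name had 1 row, and they were 8 of the 33589 rows. The stiff group was 3 libraries of MSCs, mesenchymal stem cells, from rat bone marrow, which can become bone, cartilage or fat cells, held for 48 h in an SA hydrogel of 18 kPa. The soft group was 3 libraries of such cells held for the same time at 2 kPa. PolyA RNA was sequenced after the cells had been taken out of the gel. No genotype, strain, age or number of animals is given in the sources used here, nor whether a replicate was a separate culture, so a p-value here measures the spread between libraries, which may be technical.

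Fibronectin is a large dimeric adhesion protein that cells stretch into fibrils through integrins, and other matrix proteins are laid down along those fibrils. Tenascin C, periostin, SPARC and the SMOC proteins are matricellular: they are secreted into the matrix and modify adhesion, collagen assembly and growth factor signals more than they bear load. Periostin and the Tgfbi protein share fasciclin domains, bind collagens and integrins, and are textbook products of fibroblasts exposed to TGF-beta. Vitronectin is an adhesive protein of plasma and matrix made chiefly by the liver.

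In stiff gel Tnc (1.34-fold) and Smoc1 (1.43-fold) rose and Tgfbi fell to 0.762 times its soft level. Fn1, Postn and Sparc, ranked 3, 15 and 17 of all rows by mean FPKM, had stiff means at 0.898, 0.864 and 1.11 times the soft ones and did not pass the test, nor did Smoc2, at 0.905 times. Of the 7 genes tested, 2 were called higher, against 1.01% of all 12713 genes tested, and 1 was called lower, against 0.425%; 1.43% of all genes were called in either direction. The 3 calls were lost when any 1 library other than soft replicate 1 was left out. Vtn was too low to test. FPKM are fragments counted per kilobase of a gene and scaled to the library, a unit that allows levels of different genes to be compared, and recovered reads came to between 14966354 and 16711527 per library.

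**Figure D1:**
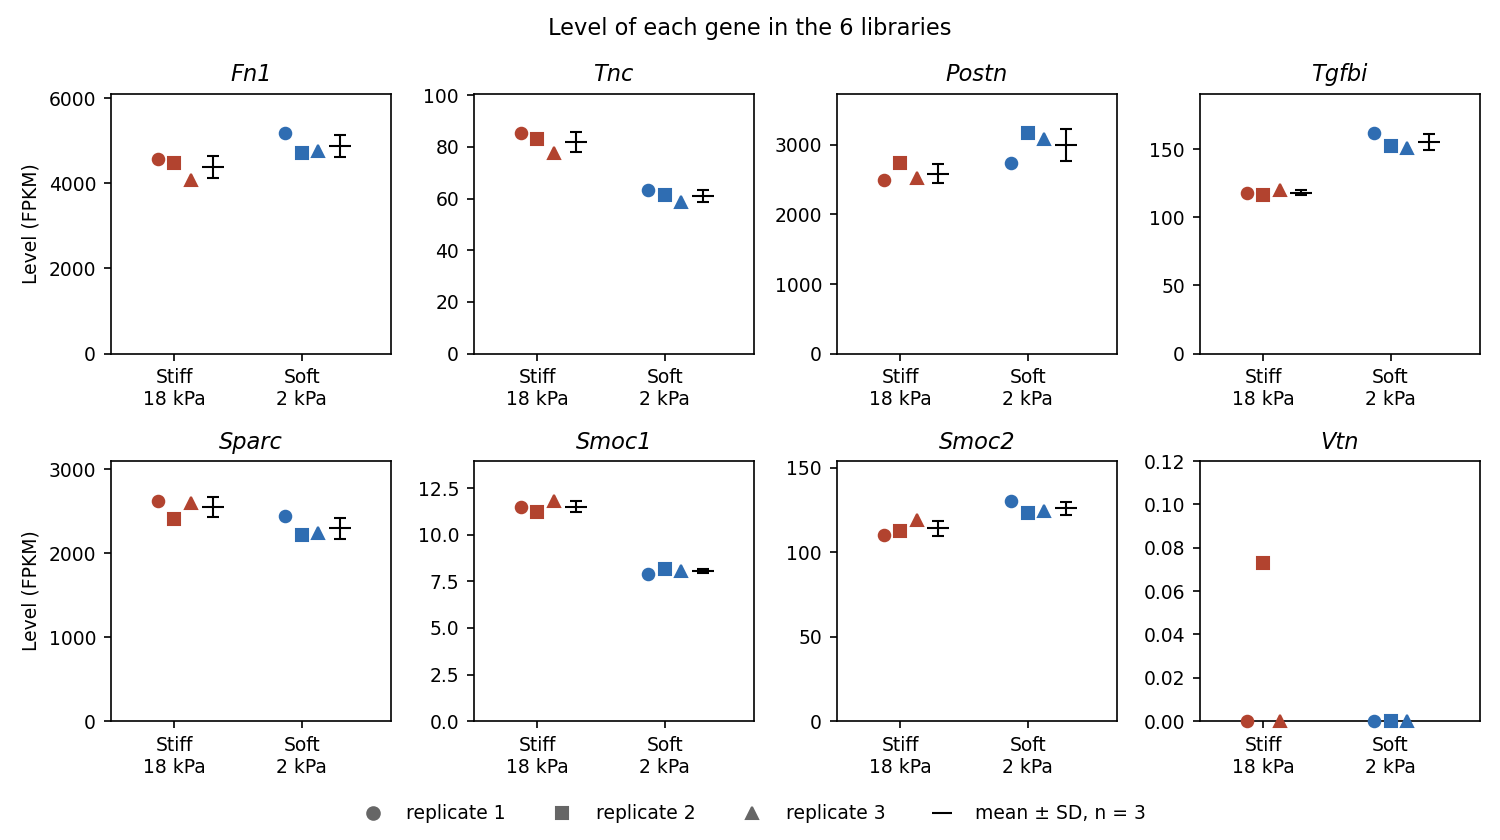
Level of each of the 8 genes in FPKM (vertical axes from 0, a separate scale per gene) in the 3 stiff libraries at 18 kPa and the 3 soft libraries at 2 kPa, with the mean and SD of each group for the 7 tested genes. The stiff points lie above the soft ones for Tnc and Smoc1 and below them for Fn1, Tgfbi and Smoc2, while the groups overlap for Postn and Sparc.

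The promoters of the 3 genes that passed the test are shown because they are the sequences nearest to the differences reported. RefSeq promoters matched 6 of the 8 genes by symbol. None was matched for Fn1 or Smoc2, so these genes were not searched. Each line gives the 250 bases before the annotated start, 5′ to 3′ on the gene's strand, in the GRCr8 build. Capitals mark a match to any of 4 motifs searched on both strands, with matches allowed to overlap: TEAD (GGAATG), SMAD (CAGAC), AP-1 (TGANTCA) and the CArG box of SRF.
Tnc (chr5:82476132-82476381, minus strand): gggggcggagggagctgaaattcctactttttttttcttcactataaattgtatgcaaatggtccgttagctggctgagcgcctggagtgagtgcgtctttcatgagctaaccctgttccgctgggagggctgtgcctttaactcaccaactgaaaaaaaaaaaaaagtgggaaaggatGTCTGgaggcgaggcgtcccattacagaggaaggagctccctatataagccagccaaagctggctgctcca
Smoc1 (chr6:106432356-106432605, plus strand): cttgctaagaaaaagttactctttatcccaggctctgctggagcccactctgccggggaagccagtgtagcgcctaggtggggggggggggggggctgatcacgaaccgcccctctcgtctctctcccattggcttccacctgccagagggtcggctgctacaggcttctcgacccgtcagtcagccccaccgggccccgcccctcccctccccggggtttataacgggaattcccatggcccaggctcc
Tgfbi (chr17:7990114-7990363, minus strand): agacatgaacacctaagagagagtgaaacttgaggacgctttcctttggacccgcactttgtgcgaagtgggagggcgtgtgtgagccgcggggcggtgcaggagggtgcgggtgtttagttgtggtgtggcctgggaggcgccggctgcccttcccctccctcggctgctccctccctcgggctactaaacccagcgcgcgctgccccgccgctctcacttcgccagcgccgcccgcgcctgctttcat
The Tnc window held 1 SMAD match, on the opposite strand and beginning 71 bases before the start, and the Smoc1 and Tgfbi windows held no match to the 4 motifs. Of 33469 rat promoters of the same length, 42.9% held the SMAD letters, 12.1% the TEAD letters, 6.34% the AP-1 letters and 1.5% a CArG box. Among the other genes, Sparc had 3 SMAD matches and 1 TEAD match, Postn 1 SMAD match and Vtn 1 TEAD match. A match describes these letters only, and a window without one says nothing of the factor. The GC content of the windows was 49.6% for Tnc, 64.8% for Smoc1 and 65.6% for Tgfbi.

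The labelled cell type was checked against its markers. All 10 mesenchymal markers, Thy1, Nt5e, Eng, Cd44, Pdgfra and Pdgfrb among them, had a mean of at least 1 FPKM in both groups, and their summed level ran from 5546 to 6815 FPKM in stiff and from 5177 to 6697 FPKM in soft libraries. Most of that sum was type I collagen: without Col1a1 and Col1a2 the other 8 summed to between 1935 and 2019 FPKM in stiff and between 1843 and 1927 FPKM in soft libraries. None of these 10 passed limma's test, against 1.43% of all genes, and 0 were called by voom on recovered reads, against 2.56%. An unadjusted p under 0.05 was found for 2 of the 10, against 15.4% of all genes. These counts are near the background. The 4 endothelial markers summed to between 0.173 and 0.285 FPKM in stiff and between 0.157 and 0.411 FPKM in soft libraries. The 3 erythroid markers, Alas2, Klf1 and Hbb, summed to between 0.498 and 0.635 FPKM in stiff libraries. In soft libraries they summed to between 0.657 and 0.957 FPKM, and Hbb was at 0 in all 6 libraries. Pf4, a platelet chemokine gene, was at 427.5 ± 21.5 FPKM in stiff and 413.7 ± 16.1 FPKM in soft libraries (SD, n = 3 each), while the other megakaryocyte markers, Itga2b and Gp9, were under 1 FPKM in every library. The 12 macrophage and leukocyte markers summed to between 266.9 and 279.3 FPKM in stiff and between 283.2 and 284.2 FPKM in soft libraries. Some of them exceeded the lowest mesenchymal markers: Adgre1 averaged 84.9 FPKM in stiff and 69.0 FPKM in soft libraries and Cd14 60.5 FPKM in stiff and 59.6 FPKM in soft libraries, whereas Nt5e averaged 16.1 FPKM in stiff and 14.4 FPKM in soft libraries and Eng 16.6 FPKM in stiff and 16.4 FPKM in soft libraries. In bulk RNA fewer cells of a type and less RNA per cell cannot be told apart.

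Fibronectin was the most abundant of the 8 genes in every library and ranked 3 among all rows by mean FPKM. Fn1 (ENSRNOG00000014288, chromosome 9 from 78900103 to 78969078, minus strand, in coordinates of the table, which names no build) had 4581, 4476 and 4089 FPKM in stiff libraries 1 to 3, against 5178, 4706 and 4759 FPKM in soft libraries 1 to 3. All 3 stiff libraries lay below the soft ones, with soft replicate 1 the highest and stiff replicate 3 the lowest. Of all genes tested, 10.9% had every stiff library below every soft one, 11.7% had every stiff library above, and so 22.6% had groups that did not overlap. On the log2(FPKM + 1) scale the difference was -0.16 (95% interval -0.30 to -0.01), and limma's test adjusted over all genes did not call it (adjusted p = 0.303). With the trend with gene length removed the difference was -0.08. This 1 gene held 3.83%, 3.76% and 3.44% of the recovered reads in stiff and 4.38%, 4.01% and 4.05% in soft libraries. The 8 genes together held 5.30%, 5.27% and 4.92% in stiff and 5.90%, 5.64% and 5.64% in soft libraries.

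Periostin and SPARC followed at similar levels. Postn (ENSRNOG00000012660, chromosome 2) had 2497, 2745 and 2519 FPKM in stiff libraries 1 to 3, against 2737, 3166 and 3083 FPKM in soft libraries 1 to 3. Sparc (ENSRNOG00000012840, chromosome 10), which encodes a collagen-binding glycoprotein abundant in bone, had 2626, 2413 and 2603 FPKM in stiff and 2439, 2215 and 2235 FPKM in soft libraries. The groups overlapped for both genes, through stiff replicate 2 and soft replicate 1 in each case. The differences were -0.21 for Postn (95% interval -0.37 to -0.05, adjusted p = 0.222 by limma) and 0.15 for Sparc (0.01 to 0.29, adjusted p = 0.292), so neither passed. After quantile normalization Postn stood at -0.32 (adjusted p = 0.0503) and Sparc at 0.03 (adjusted p = 0.922, both by limma).

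These 2 genes varied in opposite senses within the groups. Postn was highest and Sparc lowest in replicate 2 of both the stiff and the soft group. The ratio of Postn to Sparc was 0.951, 1.14 and 0.968 in stiff libraries 1 to 3, against 1.12, 1.43 and 1.38 in soft libraries 1 to 3, and the groups overlapped. Stiff replicate 2 and soft replicates 2 and 3 were also the libraries at the negative end of the second principal component of all tested genes (24.1% of the variance), at -10.4, -13.6 and -10.0, while the other stiff libraries lay at 5.92 and 13.3 and soft replicate 1 at 14.8. The first component, with 30.2%, placed the stiff libraries at 10.3 to 14.2 and the soft ones at -20.9 to -7.98, with soft replicate 1 farthest out. The part of this axis in the Postn and Sparc values was not tested. Sparc came second after Fn1 in stiff replicates 1 and 3, and Postn did in the other 4 libraries.

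**Figure D2:**
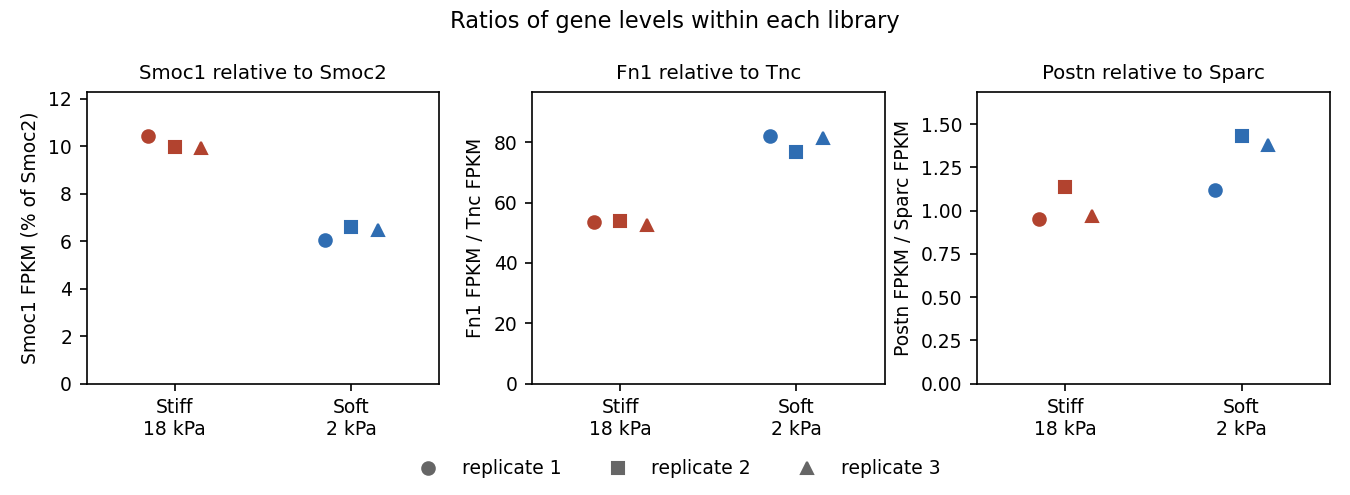
Ratios of gene levels within each library: Smoc1 as a percent of Smoc2, Fn1 over Tnc, and Postn over Sparc (FPKM over FPKM, axes from 0), in the 3 stiff and 3 soft libraries. None of these ratios was tested. Smoc1 reaches 9.91% to 10.4% of Smoc2 in stiff and 6.07% to 6.62% in soft libraries, Fn1 exceeds Tnc 52.6- to 54.0-fold in stiff and 76.6- to 81.9-fold in soft, and the groups overlap for Postn over Sparc.

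Tenascin C, a hexameric glycoprotein that loosens cell adhesion to fibronectin and is made in wounds, tendon and growing bone, rose. Tnc (ENSRNOG00000058645, chromosome 5 from 79789671 to 79874671, minus strand) had 85.3, 82.9 and 77.8 FPKM in stiff libraries 1 to 3, against 63.2, 61.5 and 58.6 FPKM in soft libraries 1 to 3. Every stiff library lay above every soft one, and the gap between the groups was larger than the range within either. The means were 82.0 ± 3.84 FPKM in stiff and 61.1 ± 2.35 FPKM in soft libraries (SD, n = 3 each), a 1.34-fold difference resting on 9168 to 9668 reads per stiff and 6872 to 7654 reads per soft library. The log2 fold change was 0.42 (SE 0.0574, adjusted p = 0.0220 by limma). In proportion, Fn1 exceeded Tnc 53.7-, 54.0- and 52.6-fold in stiff libraries and 81.9-, 76.6- and 81.3-fold in soft libraries. This ratio combines the Fn1 and Tnc differences already given and was not tested.

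Of the SMOC pair, Smoc1 rose and Smoc2 did not pass the test. Smoc1, whose product antagonizes BMP signalling in frog embryos, was the least abundant of the 7 tested genes and had the largest rise. Smoc1 (ENSRNOG00000005998, chromosome 6 from 104718512 to 104877980, plus strand) had 11.5, 11.2 and 11.8 FPKM in stiff libraries 1 to 3, against 7.92, 8.15 and 8.07 FPKM in soft libraries 1 to 3. Every stiff library lay above every soft one. The values rest on only 295, 312 and 341 reads in stiff and 229, 230 and 226 reads in soft libraries. At such counts sampling error is sizeable, so the small spread of 3 libraries may understate it. The means of 11.5 ± 0.310 FPKM in stiff and 8.05 ± 0.117 FPKM in soft libraries differed 1.43-fold (log2 fold change 0.47, SE 0.0604, adjusted p = 0.0183 by limma). Smoc2 (ENSRNOG00000014166, chromosome 1), the more abundant relative, had 110.5, 112.7 and 119.3 FPKM in stiff libraries 1 to 3, against 130.5, 123.2 and 124.6 FPKM in soft libraries 1 to 3. All 3 stiff libraries lay below the soft ones, yet the difference of -0.14 (95% interval -0.27 to -0.02) did not pass limma's test (adjusted p = 0.257). Smoc1 stood at 10.4%, 9.95% and 9.91% of the Smoc2 level in stiff and at 6.07%, 6.62% and 6.47% in soft libraries; this ratio was chosen after its values were seen and was not tested.

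Tgfbi was the only one of the 7 tested genes called lower in stiff gel. Tgfbi (ENSRNOG00000012216, chromosome 17 from 8400146 to 8429338, minus strand) had 117.7, 116.3 and 120.3 FPKM in stiff libraries 1 to 3, against 161.7, 152.2 and 151.1 FPKM in soft libraries 1 to 3. The highest stiff library lay well below the lowest soft one. The means were 118.1 ± 2.02 FPKM in stiff and 155.0 ± 5.80 FPKM in soft libraries, a ratio of 0.762 (log2 fold change -0.39, SE 0.0485, adjusted p = 0.0154 by limma). It lay above Smoc2, the next gene down, in each of the 6 libraries, and the ranges of the 2 genes overlapped in stiff but not in soft gel. Tgfbi is also known from monocytes and macrophages. Of the 9 macrophage and leukocyte markers tested, 2 were called lower, against 0.425% of all genes, and 1 higher, against 1.01%. An unadjusted p under 0.05 was found for 4 of these 9, against 15.4% of all genes. Cd68, a lysosomal protein gene of phagocytes, was at 27.7 ± 1.52 FPKM in stiff and 40.4 ± 3.47 FPKM in soft libraries. Cd53, a leukocyte tetraspanin gene, was at 8.20 ± 0.439 FPKM in stiff and 12.6 ± 1.15 FPKM in soft libraries. Adgre1, the F4/80 antigen gene, was at 84.9 ± 2.24 FPKM in stiff and 69.0 ± 1.85 FPKM in soft libraries. The other 6 tested markers did not pass limma's test. Their log2 fold changes were 0.02 for Cd14, 0.01 for Csf1r, -0.04 for Laptm5, -0.11 for Ptprc, -0.17 for Fcer1g and -0.26 for Tyrobp. With 1 library left out, Cd68 and Cd53 passed only without soft replicate 1 and Adgre1 in none of 6 fits (adjusted p up to 0.164 by limma). The summed levels of the whole marker list are given above, C1qb and C1qc lay under 1 FPKM, and their part in the Tgfbi difference was not tested.

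Vitronectin was at the limit of detection. Vtn (ENSRNOG00000010031, chromosome 10) had 2 reads in stiff replicate 2, which is 0.0732 FPKM, and 0 reads in the other stiff libraries and in all 3 soft ones. A count of 0 allows up to 3 reads, or between 0.106 and 0.119 FPKM in the stiff and between 0.106 and 0.109 FPKM in the soft libraries, for counting error only. It lay under the level filter and was not tested, and no fold change is given. The liver markers Alb, Apoa1 and Ttr summed to between 0.202 and 0.626 FPKM in stiff and between 0.138 and 0.632 FPKM in soft libraries.

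**Figure D3:**
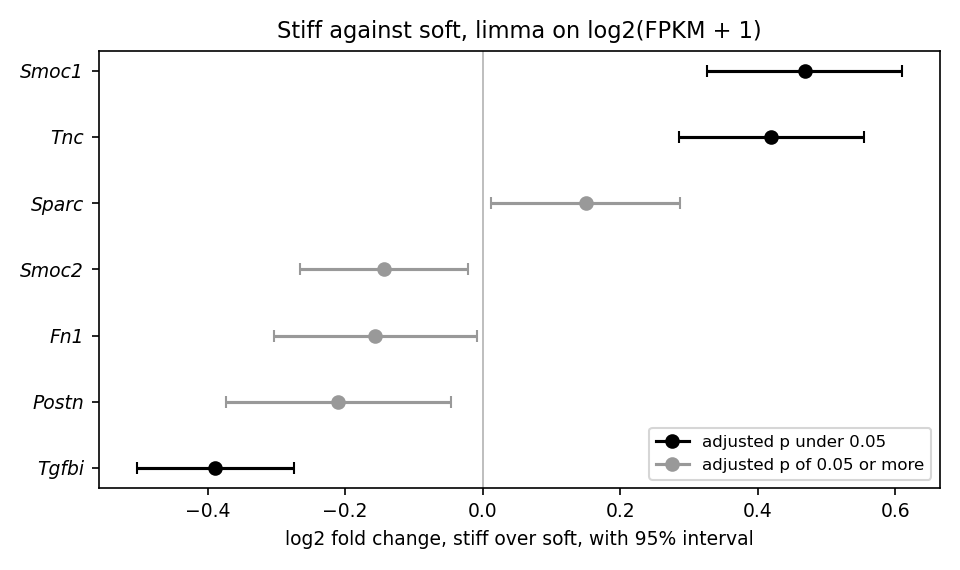
Log2 fold change of stiff over soft for the 7 tested genes (horizontal axis, limma on log2(FPKM + 1), point with its 95% interval, not adjusted for the number of genes), black where the adjusted p was under 0.05. Smoc1 at 0.47 and Tnc at 0.42 lie to the right of 0 and Tgfbi at -0.39 to the left, with Sparc, Smoc2, Fn1 and Postn between them in grey.

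The median log2 fold change of the 7 tested genes was -0.14, against 0.001 over all genes tested. All 7 had an unadjusted p under 0.05, as did 15.4% of all genes tested. The groups did not overlap for 5 of them, against 22.6% of all genes tested. The genes were chosen with earlier results of these data known, so these shares are a description. None of the 7 changed direction under any alternative tried. The 3 calls held without soft replicate 1, the library that stood apart (adjusted p between 0.0212 and 0.0330 by limma), and all 3 were lost when any other single library was left out (0.0617 to 0.114).

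**Figure D4:**
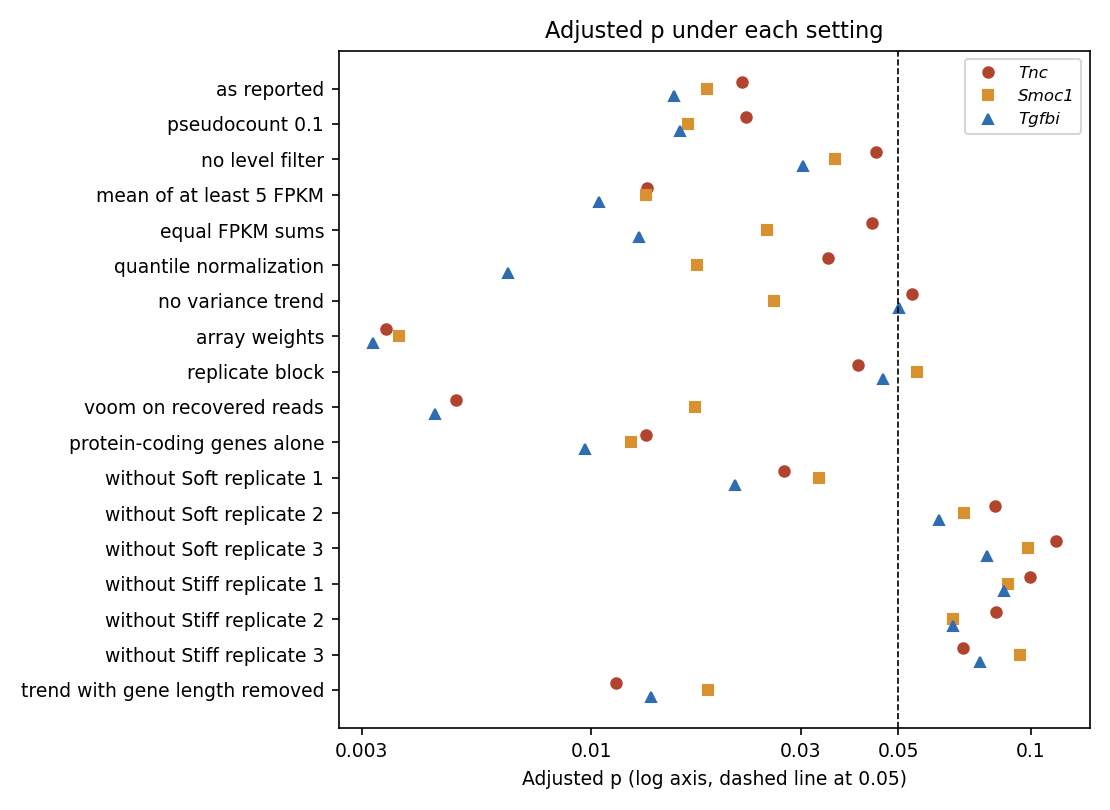
Adjusted p of Tnc, Smoc1 and Tgfbi (horizontal log axis, dashed line at 0.05) as reported and under each of 17 alternatives. All 3 lie to the right of the line without soft replicate 2, soft replicate 3 or any stiff replicate, and to the left of it without soft replicate 1.

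Of 10 other genes of these families, 9 were in the table and 3 were over the level filter, of which 1 was called, against 1.43% of all genes; with 3 genes tested, this share is a description. Fstl1, a secreted follistatin-like glycoprotein of the SPARC family, rose, with 437.3, 445.5 and 430.7 FPKM in stiff libraries 1 to 3, against 338.8, 352.7 and 352.8 FPKM in soft libraries 1 to 3 (log2 fold change 0.33, adjusted p = 0.0198 by limma). Its call held without soft replicate 1 and was lost without any 1 of the other 5 libraries (adjusted p between 0.0285 and 0.106 over the 6 fits). Tnn, which encodes tenascin N, a tenascin of bone and stem cell niches, was the more abundant tenascin, at 634.7 ± 22.4 FPKM in stiff and 558.2 ± 21.3 FPKM in soft libraries, and was not called (0.19, adjusted p = 0.153); it was chosen after its values were seen. Its level did not overlap that of Tnc in any library, and Tnc stood at 12.9%, 13.4% and 12.5% of Tnn in stiff and at 10.8%, 11.3% and 10.7% in soft libraries. Tnr, Sparcl1, Spock1, Spock2, Spock3 and Stab2 were under the filter.

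Of the receptors, none of 15 tested integrin subunits, syndecans and other receptors of these proteins passed limma's test, against 1.43% of all genes, or voom on recovered reads, against 2.56%. With such shares 0 calls among 15 is near the background, as are the 3 at an unadjusted p under 0.05, against 15.4% of all genes. Their median log2 fold change was -0.04, against 0.001 over all genes. The 2 most abundant were Sdc4, a syndecan that works with integrins on fibronectin, at 375.4 ± 15.5 FPKM in stiff and 332.0 ± 10.2 FPKM in soft libraries (adjusted p = 0.172), and Itgb1, the beta subunit of the main fibronectin receptor, at 299.6 ± 17.0 FPKM in stiff and 264.8 ± 23.3 FPKM in soft libraries (adjusted p = 0.322, both by limma).

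Among crosslinkers, proteases, inhibitors and binding partners in the matrix, 1 of 14 tested rose, against 1.01% of all genes, and 13 did not pass limma's test. By voom on recovered reads 5 of the 14 were called, against 2.56% of all genes. An unadjusted p under 0.05 was found for 6 of the 14, against 15.4% of all genes. The groups did not overlap for 6 of the 14, against 22.6% of all genes. The median log2 fold change was -0.05. Ltbp1, which ties latent TGF-beta to the matrix, had 43.1, 44.2 and 42.0 FPKM in stiff libraries 1 to 3, against 30.0, 30.8 and 30.9 FPKM in soft libraries 1 to 3. The groups did not overlap and their means were 1.41-fold apart (log2 fold change 0.48, adjusted p = 0.00860 by limma). With 1 library left out it passed in 4 of 6 fits, and it was lost without soft replicate 3 or stiff replicate 1 (adjusted p up to 0.0599 by limma). Chosen after their values were seen, the collagen crosslinker Lox was at 608.6 ± 40.4 FPKM in stiff and 477.9 ± 41.1 FPKM in soft libraries (adjusted p = 0.0930), and the transglutaminase Tgm2, which crosslinks fibronectin, at 8.42 ± 0.878 FPKM in stiff and 11.5 ± 0.649 FPKM in soft libraries (adjusted p = 0.0856, both by limma). Col4a1 and Fbln2, also chosen after their values were seen, had smaller p-values than Lox and Tgm2 but were not called either. Their log2 fold changes were -0.29 for Col4a1 (adjusted p = 0.0794) and 0.27 for Fbln2 (adjusted p = 0.0851, both by limma).

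Regulators of these genes, TGF-beta ligands and receptors, SMADs and the SRF and YAP/TAZ factors, gave no call among 15 tested by limma or by voom, against 1.43% and 2.56% of all genes. Of these 15, 2 had an unadjusted p under 0.05, against 15.4% of all genes, and the median log2 fold change was -0.04; these counts are near the background. Tgfb1 was at 95.01 ± 0.514 FPKM in stiff and 99.9 ± 4.598 FPKM in soft libraries (adjusted p = 0.560 by limma), and Yap1 at 70.5 ± 3.96 FPKM in stiff and 74.2 ± 13.2 FPKM in soft libraries (adjusted p = 0.864 by limma).

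**Figure D5:**
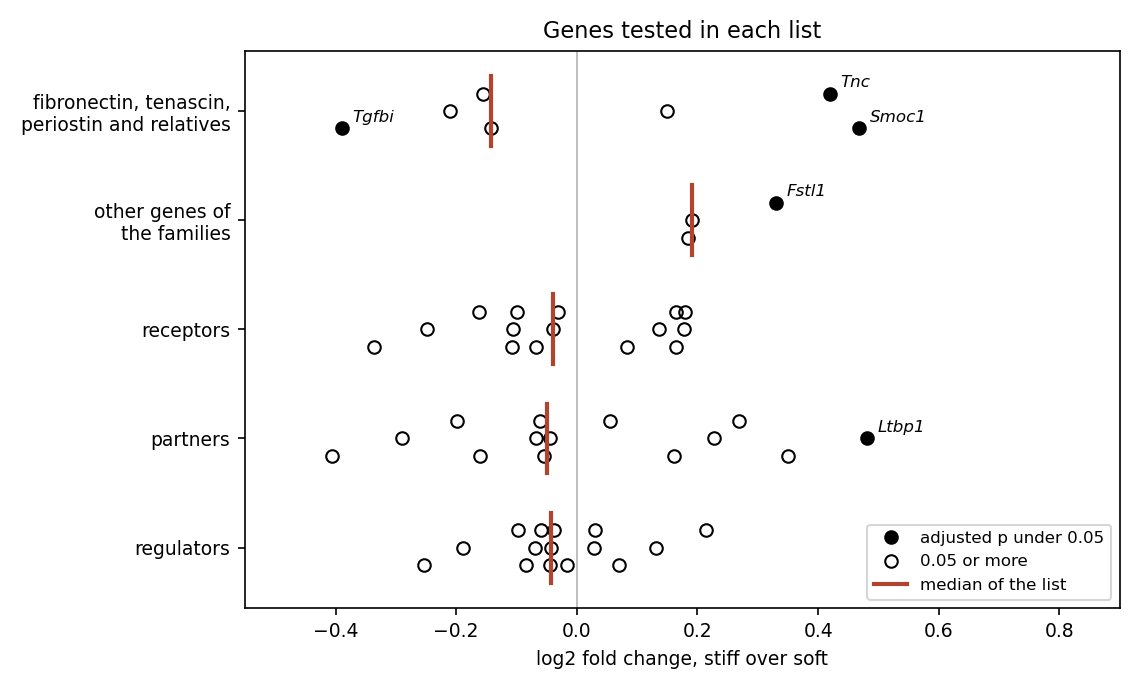
Log2 fold change of stiff over soft (horizontal axis) for every tested gene of 5 lists, filled where the adjusted p was under 0.05 and with the list's median as a red bar. Filled points are Tnc, Smoc1 and Tgfbi among the 7 tested genes described here, Fstl1 among their relatives, and Ltbp1 among partners; receptors and regulators have none.

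The genes most like each of the 7 were sought among those with a mean of at least 10 FPKM, by Pearson's r of log2(FPKM + 1) over the 6 libraries. The nearest were Myo10 and Prrc2b for Fn1, Mthfd1l and Flna for Tnc, Enpep and Gstz1 for Postn, Plekhg4 and Dlst for Tgfbi, Fabp5 and Asb6 for Sparc, Rasl12 and Spon2 for Smoc1, and Renbp and Asic3 for Smoc2. Their r lay between 0.988 and 0.998. With 6 points in 2 groups such values are easily reached: between 37 and 149 of the genes searched had an r of at least 0.95 with each of the 7. Flna, the actin crosslinker filamin A, had 197.8, 193.0 and 179.4 FPKM in stiff libraries 1 to 3, against 163.3, 158.2 and 156.9 FPKM in soft libraries 1 to 3, so replicate 1 was highest and replicate 3 lowest in each group, as for Tnc. Flna was picked for its r with Tnc over these same libraries, so the shared order is no separate observation.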

How the data were processed

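PolyA RNA was measured in 3 stiff and 3 soft libraries. The authors deposited 1 table of FPKM with gene lengths in bases, 1 column per library. Per the submitters' processing notes, Bowtie 0.12.9, Cufflinks 2.1.1 and HTSeq were used and the mouse builds mm10 and GRCm38 are named, whereas the table holds rat Ensembl identifiers and names no build. No source used here states how strand was handled, so overlapping and antisense genes are uncertain.

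The product of FPKM and gene length, divided by its smallest step per library, was whole (to within 0.01) for 100% of values, which gave reads per gene. The 12713 genes averaging at least 1 FPKM were tested on log2(FPKM + 1), a scale that understates the change of low genes, with limma 3.58.1 under R 4.3.3: group as the only term, intensity trend, two-sided, Benjamini-Hochberg adjustment over all genes, threshold 0.05. Folds are ratios of mean FPKM. The fit was tested on simulated data whose noise was independent and of the same size in every library. That setting has no library that stands apart, as soft replicate 1 does, so it cannot show how the fit handles one. Libraries of 1 group differed by more than sampling noise, with a chi-square per degree of freedom of at least 3.57. Replicate numbers are not stated to pair libraries.

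The members and lists were chosen with earlier results of these data known. Named were the 8 genes, up to 4 called genes per list or, with none called, the 2 most abundant, the 2 nearest patterns per gene, and cell type markers; exceptions are marked. Listed names with no match in the table were not analysed here, and 1 listed gene is not reported here. Alternatives covered pseudocount, filter, scaling, variance model, weights, the replicate number as a block, voom, protein-coding genes alone and each library left out; removal of a trend with gene length was chosen after seeing the data.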

Additional observations from a re-analysis of the deposited data

How the results depend on the processing

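None of the 7 tested genes changed direction under the 17 alternatives, but the size of 3 uncalled ones moved by over 1.5 times: Fn1 to -0.08 with the trend with gene length removed, and, after quantile normalization, Postn to -0.32 and Sparc to 0.03. Without the variance trend Tnc (log2 fold change 0.42, adjusted p = 0.0537) and Tgfbi (-0.39, adjusted p = 0.0501) lost their calls, leaving 1 of the 7 genes. Over all 12713 genes that setting called 112, against 182 as reported. With array weights Postn (-0.27, adjusted p = 0.0266) and Sparc (0.20, adjusted p = 0.0429) gained a call, giving 5 of the 7, all by limma. Array weights called 685 of all 12713 genes, so calls were more frequent throughout. The replicate numbers do not clearly pair the libraries, since the deviations of same-numbered libraries correlated at 0.06, 0.12 and -0.08 across genes; with the replicate block Smoc1 lost its call (0.47, adjusted p = 0.0550 by limma) and 105 genes were called. With 1 library left out, log2 fold changes ran from 0.39 to 0.46 for Tnc, from 0.45 to 0.49 for Smoc1 and from -0.41 to -0.36 for Tgfbi. In those fits between 0 and 3 of the 7 were called, and between 27 and 159 of all genes. Leaving out a library left fewer samples for each fit.

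Over all genes, 182 were called, 128 higher and 54 lower. The count was 92 with no level filter, 112 without the variance trend, 685 with array weights and 326 with voom, and it lay between 27 and 159 with 1 library left out (159 without soft replicate 1, 54 without soft 2, 38 without soft 3, 27 without stiff 1, 46 without stiff 2, 37 without stiff 3). The split was 88 higher and 68 lower at equal FPKM sums and 103 and 68 after quantile normalization, where the median of all genes lay at -0.042 and -0.002. Fstl1 lost its call after quantile normalization and without the variance trend, leaving 0 relatives called, and array weights called 2; with 1 library left out the count was 0 to 1. Partners called came to 7 with array weights, 5 with voom, 2 after quantile normalization, 2 with the trend with gene length removed, and 0 to 2 with 1 library left out. No receptor or regulator was called under any of the 17 alternatives, and Vtn was testable only with no level filter. For array weights and voom the cause was not tested. Smoc1, at 226 to 341 reads per library, is the tested gene whose value depth limits most.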
